A study of Homo sapiens with 5 samples.

Results

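Clusters of strong distal hotspots are stretches of the MCF10A genome where at least 4 intense regions of open chromatin lie close together, away from the promoters of protein-coding genes. They were found from the pooled hotspot list alone. A hotspot (a region of local read enrichment) was taken if its score was 10.04 or more and its midpoint lay over 2000 bp from every transcription start site (TSS) of a protein-coding transcript, on the 22 autosomes. Neighbours at most 12.5 kb apart were joined, and groups of 4 or more were kept. This gave 384 clusters with 1912 hotspots, out of 23583 strong distal hotspots (8.11%, confidence interval 7.77 to 8.46) and 181723 hotspots in all. The members were thus chosen by their score, TSS distance and spacing, and their scores and summed scores are given as descriptions. Just inside the limits lay a distal hotspot with a score of 10.0407, a strong hotspot 2004 bp from a TSS and a joined gap of 12499 bp. Just outside lay a score of 10.0395, a TSS distance of 2000 bp and a gap of 12509 bp. Groups of exactly 4 hotspots numbered 234, and 816 groups of 3 were not kept.

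ATAC-seq, in which the Tn5 transposase cuts and tags open chromatin, was performed in 5 replicates of MCF10A, a non-tumorigenic human mammary epithelial cell line at a passage number below 30. The cells were kept at baseline in medium with 5% horse serum, 20 ng/ml EGF, 0.5 µg/ml hydrocortisone, 100 ng/ml cholera toxin and 10 µg/ml insulin, so every value below was measured under EGF and glucocorticoid. The authors pooled the replicates before calling hotspots, so replicate errors could not be given and the depth is unknown. Shares carry 95% Wilson intervals, which cover counting error only and treat hotspots of the same cluster as independent, which they are not. Of the cell type markers, 10 of 12 basal and 8 of 9 luminal mammary genes carried a promoter hotspot (at most 1000 bp away), as did 6 of 7 mesenchymal, 2 of 5 immune, 2 of 4 neuronal and 0 of 4 hepatocyte genes. The share of all protein-coding genes with a promoter hotspot is not given, so no cell type is read from these counts.

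Enhancers are stretches of DNA that bind transcription factors and raise transcription of genes at a distance. Groups of enhancers spaced closely along a chromosome are known near genes that define a cell type or respond to signals, and are often called stretch enhancers or super-enhancers when histone marks or cofactor binding mark them as such. No mark was measured here, and the clusters are named only as groups of hotspots. In mammary epithelial cells, AP-1 (dimers of FOS and JUN proteins, which act downstream of EGF) is known to bind many enhancers. A read from a sequence with many copies in the genome cannot be assigned to 1 of them.

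The hg38 sequence under each hotspot, which the rule did not use, was examined for repeated words. A word of 75 bases (the tag length given to Hotspot) was called repeated if it occurred again, on either strand, in hg38. The cluster's value is the median, over its hotspots, of the percentage of words that were repeated. The number of CATTC words per kb of span, counted on both strands, served as a measure of the satellite DNA built from diverged CATTC units that lies near several human centromeres. A limit of 15 CATTC words per kb was set. It left 27 clusters with between 18.2 and 102 per kb (termed CATTC-rich), while the others held at most 12.0, and gaps between neighbouring values as wide as this were also seen within the CATTC-rich class. Repeated words formed a continuous range, with 122 of 384 clusters below 10%, 7 between 10% and 20%, and 54, 61 and 59 in the bands of 10 points above 70%. Outside the CATTC-rich class, 106 clusters had under 10% repeated words and are termed single-copy, and 251 are termed repeated, with a median of 78.7% repeated words. These limits were chosen after the values were seen. The single-copy class rests on a median of exact words, so diverged repeats can still be in it, and 31 of its 485 hotspots themselves had 10% or more repeated words.

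**Figure D1:**
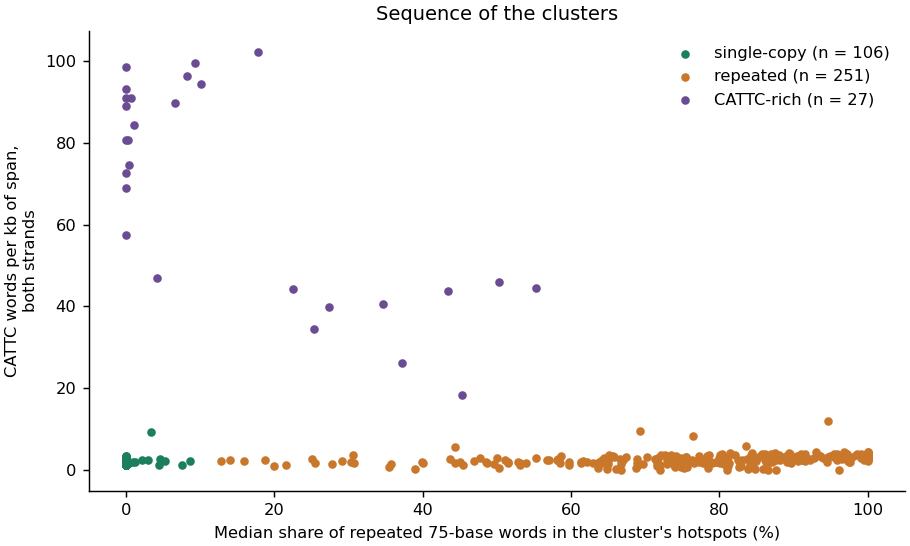
Each point is 1 of 384 clusters, with the median percentage of repeated 75-base words in its hotspots on the x axis and CATTC words per kb of span on the y axis. The 106 single-copy clusters sit near the origin, the 251 repeated clusters run along the x axis and the 27 CATTC-rich clusters lie above 18 words per kb.

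The sequences below show single-copy and CATTC-rich clusters, all read from the plus strand of hg38. In single-copy clusters, the site nearest to the midpoint in the strongest hotspot with an AP-1 match is shown with 30 bases on either side, and the capitals mark the AP-1 site (TGAGTCA on either strand). Each cluster is named by the protein-coding gene with the TSS nearest to its midpoint.
NANOS3 cluster, chr19:13847082-13847148: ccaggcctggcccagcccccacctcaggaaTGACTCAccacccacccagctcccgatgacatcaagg
CAMK1G cluster, chr1:209416220-209416286: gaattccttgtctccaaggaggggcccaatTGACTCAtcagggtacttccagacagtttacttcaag
ID1 cluster, chr20:31593634-31593700: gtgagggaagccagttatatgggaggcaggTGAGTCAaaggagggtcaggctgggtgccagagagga
ITGB6 cluster, chr2:160205624-160205690: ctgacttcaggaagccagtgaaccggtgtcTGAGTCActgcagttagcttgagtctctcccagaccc
CLDN4 cluster, chr7:73822765-73822831: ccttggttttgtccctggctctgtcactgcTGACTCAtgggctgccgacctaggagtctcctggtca
ELF3 cluster, chr1:202023202-202023268: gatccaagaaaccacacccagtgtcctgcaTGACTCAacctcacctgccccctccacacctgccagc
KRT80 cluster, chr12:52147466-52147532: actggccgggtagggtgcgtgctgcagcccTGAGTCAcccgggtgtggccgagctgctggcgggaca
ETS2 cluster, chr21:38910613-38910679: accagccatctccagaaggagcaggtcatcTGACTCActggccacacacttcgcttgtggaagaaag
TUBD1 cluster, chr17:59837202-59837268: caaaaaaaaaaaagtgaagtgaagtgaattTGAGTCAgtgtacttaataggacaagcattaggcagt
DUSP1 cluster, chr5:172777550-172777616: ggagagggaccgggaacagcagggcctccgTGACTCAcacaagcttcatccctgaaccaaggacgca

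In CATTC-rich clusters, 120 bases at the middle of the strongest hotspot are shown for the cluster with the highest summed score and for the cluster with the most hotspots. The capitals mark CATTC words.
rank 1 cluster, chr1:125177553-125177672: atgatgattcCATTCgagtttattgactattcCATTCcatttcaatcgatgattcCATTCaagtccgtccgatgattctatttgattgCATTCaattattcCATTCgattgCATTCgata
rank 8 cluster, chr10:41851698-41851817: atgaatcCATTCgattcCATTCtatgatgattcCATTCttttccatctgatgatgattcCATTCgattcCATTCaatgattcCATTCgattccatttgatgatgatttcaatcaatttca

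The ranking by summed score was led by clusters that were not single-copy. Of the 25 clusters with the highest sums, 10 were CATTC-rich, 15 were repeated and 0 were single-copy. Of the first 100, 5 were single-copy, 74 repeated and 21 CATTC-rich. The single-copy share was 29% at ranks 101 to 200, 33% at ranks 201 to 300 and 46.4% at ranks 301 to 384. Sums reached 138 among single-copy, 964 among repeated and 1487 among CATTC-rich clusters, with medians of 70.5, 87.4 and 165. Sequence class thus moved with rank, and its part in the scores was not tested.

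**Figure D2:**
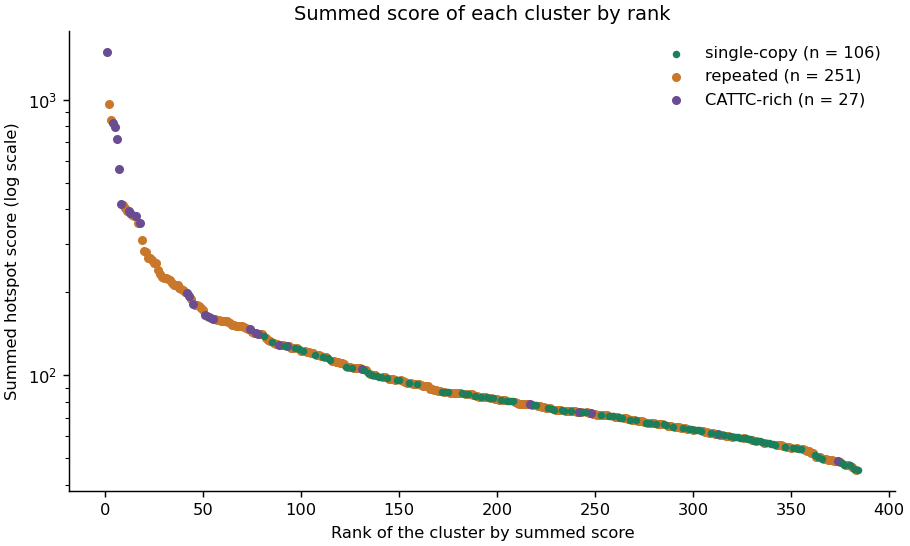
Each point is a cluster, with its rank by summed score on the x axis and the summed score of its hotspots on the y axis (log scale). No single-copy cluster is among the 25 highest, and single-copy clusters become frequent beyond rank 100.

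The cluster with the highest sum, 1487, lay at 125166159 to 125184515 on chromosome 1, 3988 kb from the nearest protein-coding TSS, that of SRGAP2C. Its 4 hotspots had scores of 74.7, 38.5, 912 and 461, and the hotspot of 912, the highest score of all hotspots on the autosomes, was 5395 bp wide. It held 39.8 CATTC words per kb. The next cluster, on chromosome 7 and 255 kb from NUPR2, had hotspots of 21.2, 63.2, 670 and 210. The cluster at rank 3, inside the gene CCDC200 on chromosome 17, summed to 843 over 6 hotspots with a median of 75.6% repeated words. In these clusters nearest to SRGAP2C and NUPR2, the highest hotspot held most of the sum. By class, it held a median of 31.7% of the sum in single-copy, 36.2% in repeated and 25.5% in CATTC-rich clusters. The median number of hotspots was 4, 4 and 8, and the highest share cannot fall below an even split.

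Size also followed the class. CATTC-rich clusters had a median of 8 hotspots, against 4 in both other classes, and all but 5 of the 27 held more than 4. The largest, with 24 hotspots over 68.1 kb on chromosome 10 (rank 8, nearest gene ZNF33B at 717 kb), had no hotspot above 28.1. A cluster of 22 hotspots over 65.5 kb on chromosome 4 (rank 6) lay 137 kb from CWH43. The next in number were a further ZNF33B cluster of 16 hotspots at rank 13, a cluster of 14 nearest to KCNJ18 at rank 16, and a repeated cluster of 12 nearest to PLGLB1 at rank 24. By span, the longest after rank 8 and rank 6 were clusters nearest to ZFP36L2 (54.9 kb, single-copy), CEP170 (54.1 kb, repeated) and DEFB115 (51.4 kb, CATTC-rich). The genes nearest to the most clusters were TPTE and DEFB115 with 7 each, FOXD4L5 with 5, ZNF33B and OR11H1 with 4 each, and SRGAP2C and RPIA with 3 each. No protein-coding TSS and no protein-coding gene lay inside any of the 27 CATTC-rich spans, and their median distance to a TSS was 283 kb.

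The rest of the 25 highest ranks were of the same kind. Clusters nearest to SHCBP1 (rank 4), H3-7 (ranks 5 and 7), IGHV3OR16-17 (rank 12), and a gene listed as ENSG00000284209 (rank 18) were CATTC-rich. Repeated clusters were nearest to CDH12 (rank 9), ZNF780A (rank 10), ALG10B (rank 11), TARS3 (rank 14), MUC17 (rank 15), PRMT2 (rank 17), ZNF33B (rank 19), CA2 (rank 20), ELOA2 (rank 21), GOLGA6L6 (rank 22), OR11H1 (rank 23) and KATNAL2 (rank 25). Their medians of repeated words ran between 54.0% at OR11H1 and 94.7% at GOLGA6L6. Such clusters are named by position only, since a read may come from another copy.

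Many repeated clusters shared words with other clusters. Pairs of clusters with at least 100 words in common were linked, and clusters linked directly or through others were grouped. In this way 177 of 384 shared words with another cluster. Members of a group need not all share words with each other. The largest group held 114 clusters on 20 chromosomes, 108 of them repeated and 6 single-copy, with a median span of 7017.5 bp and 4 to 7 hotspots each. Their words occurred at a median of 65.8 places in hg38, and the sum of scores had a median of 85.0. No word was held by more than 45 of these 114 clusters. A cluster joined this group when its hotspots shared enough words with any other member. The single-copy members nearest to CLDN4, TSPAN2, GTF2H5, TMC7 and H3-3A had a median of 0% repeated words over their hotspots. No other group held more than 7 clusters, and in the groups of 7 the words had a median of 2 copies.

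Compared with strong distal hotspots that were in no cluster, clustered hotspots held more repeated sequence. Of 1912 clustered hotspots, 66.7% (64.5 to 68.8) had 10% or more repeated words, against 48.0% (47.4 to 48.7) of 21671 unclustered ones and 24.3% of all 174422 autosomal hotspots. Of the 479 strong distal hotspots rich in CATTC, 244 (50.9%, 46.5 to 55.4) were in a cluster. Of 11736 single-copy strong distal hotspots, 522 (4.45%, 4.09 to 4.84) were in a cluster.

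Clustered hotspots lay outside protein-coding genes more often than unclustered ones. Genes of other types, such as lncRNA genes, were not counted here. By midpoint, 79.2% (77.4 to 81.0) of clustered hotspots and 59.0% (58.4 to 59.7) of unclustered hotspots lay outside protein-coding genes, and 18.8% of clustered and 38.0% of unclustered hotspots lay in introns. For single-copy clusters the difference remained. Outside protein-coding genes lay 73.8% (69.7 to 77.5) of their 485 hotspots and 55.0% (54.1 to 55.9) of 11214 unclustered single-copy hotspots. Among the 454 of the 485 that were themselves single-copy, it was 74.9% (70.7 to 78.7). Single-copy clusters had a median span of 19.5 kb, a median gap of 3.90 kb between neighbouring members and a median distance of 33.1 kb to the nearest TSS (quartiles 19.5 and 82.6 kb). Their hotspots were wider than unclustered single-copy hotspots (median 647 against 550 bp), while the GC content was 54.8% against 52.3%. A median of 2 further hotspots, weaker or nearer to a TSS, lay within each single-copy span.

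Many single-copy clusters lay at other annotated transcripts. The rule measured distance only to protein-coding TSSs, and 120 of 485 hotspots of single-copy clusters (24.7%, 21.1 to 28.8) lay within 2000 bp of a TSS of some other annotated transcript (of any type), against 18.9% (18.2 to 19.6) of unclustered single-copy hotspots. A lncRNA gene overlapped 51 of 106 single-copy, 98 of 251 repeated and 2 of 27 CATTC-rich clusters, and a lncRNA TSS lay inside 42, 54 and 1 of them. Their median spans were 19.5, 11.2 and 22.96 kb, and no background for these overlaps was computed. When the TSSs of all annotated genes were used in the rule, the number of clusters fell to 255.

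At NEAT1, the lncRNA that scaffolds nuclear paraspeckles, a cluster lay at 65416422 to 65423581 on chromosome 11 with 4 hotspots of 10.5, 22.2, 18.4 and 17.8, and 0 of these had an AP-1 match anywhere in the hotspot, which is how matches are counted for single clusters. Over all hotspots of single-copy clusters, 41.6% had such a match. At PVT1, the lncRNA gene beside MYC, the cluster nearest to MYC held hotspots of 17.9, 17.2, 24.4 and 37.8, and lay 117 kb from the MYC TSS. MYC encodes a transcription factor that drives growth and is induced by EGF.

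MicroRNA genes lay inside 5 of 106 single-copy, 2 of 251 repeated and 0 of 27 CATTC-rich clusters, and no background for these counts was computed. The mature forms of those most studied in single-copy clusters are given below as RefSeq lists them (GRCh38.p14), with the seed, bases 2 to 8, in capitals. No seed is shared among these 5.
hsa-miR-23a-3p: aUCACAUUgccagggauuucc
hsa-miR-27a-3p: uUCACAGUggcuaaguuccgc
hsa-miR-24-3p: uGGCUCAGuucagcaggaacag
hsa-miR-205-5p: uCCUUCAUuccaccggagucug
hsa-miR-21-5p: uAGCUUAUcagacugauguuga

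MIR23A, MIR27A and MIR24-2 form a single primary transcript, MIR23AHG, which lay in the single-copy cluster with the highest sum. This cluster, at 13833184 to 13862573 on chromosome 19 and rank 81 of all, held 9 hotspots with scores between 10.7 and 23.6, and 5 of the 9 had an AP-1 match. Its nearest protein-coding TSS was that of NANOS3, an RNA-binding protein of germ cells, at 29.3 kb. MIR205, a microRNA known in basal epithelium for holding ZEB1 and ZEB2 low, lay in a cluster of 7 hotspots at 209389146 to 209436022 on chromosome 1. There the scores were 18.0, 15.4, 10.1, 22.6, 29.8, 16.02 and 12.1, and the hotspot nearest to the mature sequence scored 16.02 at a distance of 1112 bp. The nearest protein-coding TSS by midpoint was CAMK1G, a kinase gene 171 kb away. MIR21, induced by AP-1 in many cells, lay in a cluster of 4 hotspots at 59829281 to 59847210 on chromosome 17, partly in VMP1, with scores of 16.5, 26.8, 20.9 and 21.0. All 4 of these hotspots had an AP-1 match, which in single-copy clusters was otherwise seen only in those nearest to THBS1 and KIF3C. Such a match was in 41.6% of all hotspots of single-copy clusters and in 47.4% of unclustered single-copy hotspots. Counts in clusters of this size are therefore given as descriptions only. The remaining hairpins in single-copy clusters were MIR3193 in the cluster nearest to ID1 and MIR6080 in that nearest to LRRC37A3.

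**Figure D3:**
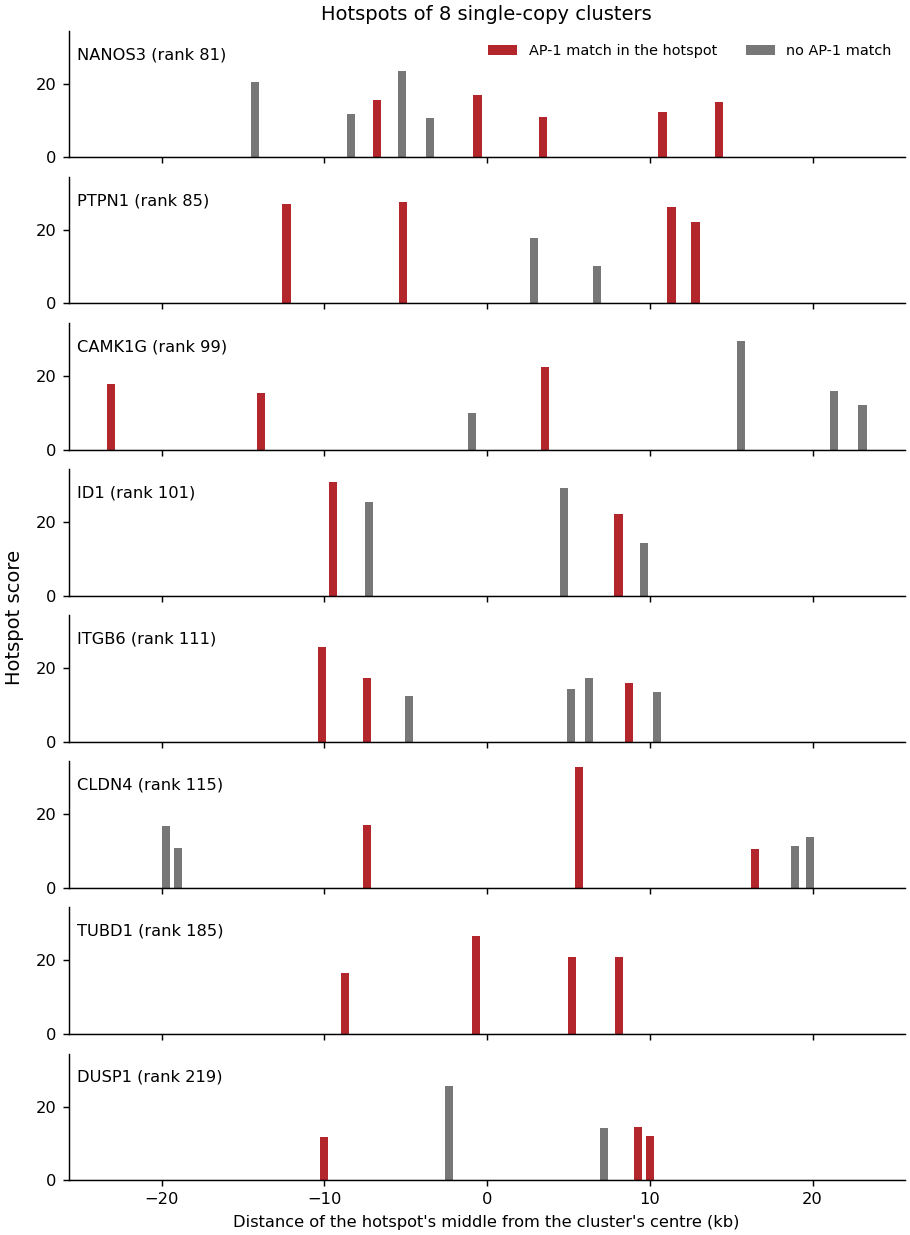
Each panel is a single-copy cluster named by its nearest protein-coding TSS, with hotspots placed by distance from the cluster's centre (x axis, kb) and bar height giving the hotspot score, which starts at 0. Red bars hold an AP-1 match and grey bars do not. The NANOS3 panel has 5 of 9 hotspots in red, and the TUBD1 panel, which holds MIR21, 4 of 4. Of all hotspots in single-copy clusters, 41.6% hold a match.

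The clusters had 339 nearest genes among 18765 protein-coding genes of the autosomes, or 1.81%, and single-copy clusters had 103, or 0.549%. Counts below rest on at most 3 genes of a list, and the lists were chosen with earlier results known, so they are given by name and no list was tested. From the list of EGF response and AP-1 genes, 3 of 27 were nearest to a cluster, all of them single-copy. DUSP1, a phosphatase that switches off MAP kinases and is also on the glucocorticoid list (1 of 13), had a cluster around its own promoter at 172758162 to 172778560 on chromosome 5. Its 5 distal hotspots scored 11.6, 25.7, 14.1, 14.5 and 11.9, and its promoter hotspot, which the rule left out, scored 26.9. ETS2, a transcription factor that responds to MAP kinase, had 2 clusters on chromosome 21, with sums of 93.4 at 99.0 kb and 56.7 at 20.4 kb from its TSS by midpoint. The remaining gene was MYC, described above.

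From the luminal list, 2 of 22 genes were nearest to a cluster. ELF3, an epithelial ETS factor, had 5 hotspots of 20.0, 16.9, 27.4, 12.6 and 23.4 in a span of 39.9 kb beginning just beyond the 3′ end of the gene on chromosome 1. CLDN4, a claudin of tight junctions, had 7 hotspots with scores between 10.7 and 32.8 in a span of 40.1 kb on chromosome 7 that includes its TSS. From the basal list, 0 of 21 genes were nearest to a cluster. From the TGF-beta list, 2 of 17 were, ID1 (an inhibitor of bHLH factors, with hotspots of 30.9, 25.5, 29.4, 22.3 and 14.5 around its TSS on chromosome 20) and THBS1 (a matrix protein, 397 kb away on chromosome 15). From the cell junction list, 1 of 18 was, CTNNB1, 231 kb from a repeated cluster. The lists of mesenchyme (16 genes), immune cells (14), neurons (12), hepatocytes (12), cAMP response (11), YAP and TEAD targets (15), proteases and inhibitors (12) and housekeeping (13) had 0.

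Within 100 kb of a single-copy span, where 1.35% of autosomal protein-coding genes had a TSS, further members appeared. KRT17 (26.5 kb) and KRT14 (64.4 kb), keratins of basal epithelium, lay beside a cluster on chromosome 17 named by EIF1, with scores of 14.8, 23.6, 30.6 and 15.02. S100A2 lay 29.9 kb from a cluster nearest to S100A6. These were 3 of 21 basal genes. Of the 22 luminal genes, 5 lay within that distance: KRT8 (26.8 kb) and KRT18 (72.0 kb), keratins of simple epithelium beside a cluster nearest to KRT78, and CLDN3, CLDN4 and ELF3. FOSB, a subunit of AP-1, lay 11.5 kb from a cluster in ERCC1, which made 3 of 27 genes of the EGF list with DUSP1 and ETS2. NR4A1, a nuclear receptor and 1 of 11 cAMP genes, lay 86.8 kb from a KRT80 cluster. None of the mesenchymal, immune, neuronal or hepatocyte genes had a single-copy cluster within 100 kb.

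Some genes outside the lists and the 25 highest ranks, chosen after their values were seen, are named here for other single-copy clusters. They are a selection from the 103 nearest genes of the class and do not describe the class as a whole. The share of such genes among all genes was not computed. Others, such as EED, LYST and RAB4A, are not described. Genes of epithelial adhesion and keratin were ITGB6, the integrin subunit that activates TGF-beta, with 7 hotspots between 12.4 and 25.9, PKP1, a plakophilin of desmosomes, with 5 hotspots that all lay in introns, FAT2, a protocadherin of squamous cells, with 5, CTNND1 (p120 catenin) with 4, and KRT80, a keratin of epithelial cells, with 2 clusters of 5. Genes that respond quickly to signals and stress were IER5, EGR3, KLF10, KLF4, BHLHE40, DDIT4 (induced by glucocorticoid), GADD45B, ZFP36L1 and ZFP36L2, each with 4 to 6 hotspots. Nearest did not always mean near, since the distance was 3.91 kb for EGR3, 92.7 kb for KLF10, 167 kb for ZFP36L2 and 564 kb for KLF4. PTPN1, which encodes a tyrosine phosphatase, was nearest to 6 hotspots between 10.3 and 27.7 on chromosome 20. The cluster nearest to MPRIP was the most uneven of the single-copy clusters, since 1 hotspot of 77.9 made up 62.3% of its sum of 125, and 78.8% of the words of that hotspot were repeated. Among hotspots of single-copy clusters with under 10% repeated words, the highest score was 39.4, in the cluster nearest to POU5F1B.

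The strength of the members varied within each cluster. At ITGB6 the 7 hotspots scored 25.9, 17.3, 12.4, 14.3, 17.3, 16.1 and 13.5 in genomic order. All of them lay outside protein-coding genes, and the cluster was 15.3 kb from the TSS by midpoint. At PKP1 the scores were 16.8, 20.4, 24.8, 10.96 and 13.8. At FAT2 they were 12.7, 22.2, 17.6, 10.3 and 10.6. All 3 clusters held hotspots under 13 beside others above 20. DDIT4, an inhibitor of mTOR signalling, had 1 strong hotspot of 34.4 among 11.2, 13.04, 10.8 and 10.97. KRT80 had scores of 16.7, 23.9, 27.5, 13.9 and 14.2 in the cluster at its 3′ end, and 10.1, 12.8, 10.97, 19.7 and 11.5 in the cluster upstream of its TSS. The cluster inside ERCC1, an excision repair gene, had 13.2, 23.9, 15.1 and 28.6, all in introns. A protein-coding TSS lay inside the span of 14 of 106 single-copy clusters, and 12 of these spans held a promoter hotspot that the rule had left out.

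Clusters were unevenly spread over the chromosomes. On chromosome 20 and on chromosome 5 beyond 120 Mb, where all hotspots together had a density of 133 per Mb against 57.3 per Mb on the other autosomes, 31 of 384 clusters lay (8.07%, 5.75 to 11.2). This was 24.6 clusters per 100 Mb there and 12.8 elsewhere. Strong distal hotspots, from which clusters were built, were also denser there, at 13.0 per Mb against 7.98. Of these hotspots, 9.63% were in a cluster there and 7.99% elsewhere. For single-copy clusters the figures were 10.3 per 100 Mb there and 3.38 elsewhere (13 of 106, 12.3%, 7.31 to 19.9). The part of DNA copy number in these densities was not tested. Chromosomes 4 and 22 had 15 and 12 clusters but 0 single-copy ones, while chromosome 11 had 11 single-copy clusters of 24.

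**Figure D4:**
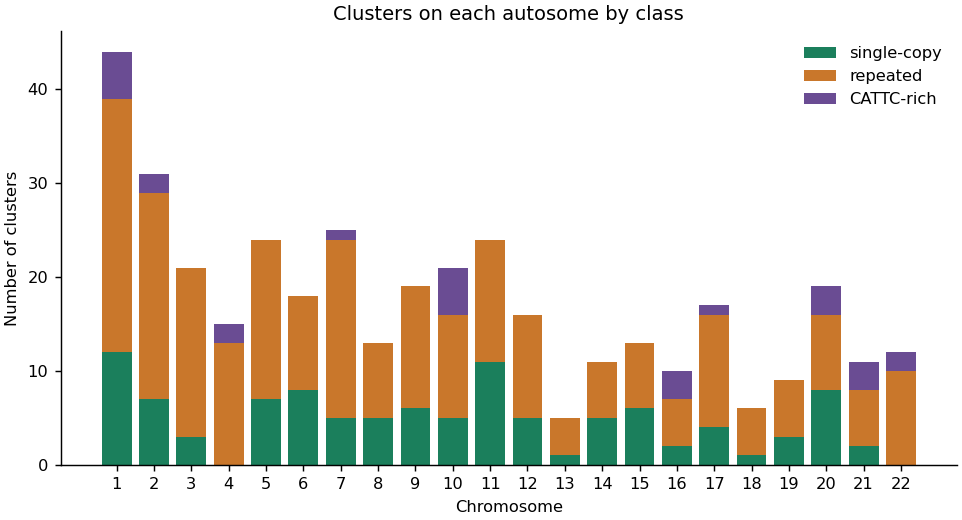
Stacked bars give the number of clusters on each autosome (x axis) by sequence class. Chromosome 1 has the most clusters, 44, and chromosomes 4 and 22 have no single-copy cluster.

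Motifs were searched on both strands in the central 120 bp of each hotspot, and in windows of the same size at the middle of the gaps between neighbouring hotspots of a cluster. A match is a description of letters, not a binding site. AP-1 (TGAGTCA) was in 15.1% (12.1 to 18.5) of 485 hotspots of single-copy clusters, against 19.1% (18.3 to 19.8) of 11214 unclustered single-copy hotspots, 2.57% (1.36 to 4.81) of 350 gap windows and 5.89% of all autosomal hotspots. Over whole hotspots, the share was 41.6% (37.3 to 46.1) in single-copy clusters and 47.4% (46.4 to 48.3) among unclustered single-copy hotspots, or 0.719 and 1.01 sites per kb. Without the 31 repeated hotspots, a comparison added after the values were seen, the central share was 16.1% (12.99 to 19.7) of 454 and the whole-hotspot share 44.3% (39.8 to 48.9), and both intervals overlapped those of the unclustered hotspots. These 454 hotspots held 0.751 sites per kb, against 1.01 in unclustered single-copy hotspots, with median widths of 647 and 550 bp. AP-1 was therefore more frequent in clustered hotspots than in the gaps between them. Against unclustered single-copy hotspots, the shares of hotspots with a match did not differ beyond counting error once repeated hotspots were left out, while the number of sites per kb, which has no interval here, was lower. In bands of score, the central shares of these 454 and of the unclustered hotspots were 15.97% against 19.6% for scores under 15, 21.7% against 19.3% between 15 and 20, 8.14% against 17.1% between 20 and 30 and 20% against 16.8% above 30, with only 15 clustered hotspots in the last. Per cluster and over whole hotspots, 90 of 106 had an AP-1 match in some member hotspot, 67 had it in 2 or more members and 16 had none.

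Taking all classes together gave a lower share, 5.07% (4.18 to 6.15) of 1912 clustered hotspots against 10.5% (10.14 to 10.96) of 21671 unclustered ones and 1.53% of 1376 gap windows. The repeated clusters had 1.85% (1.23 to 2.79) and the CATTC-rich clusters 0.837% (0.230 to 2.999). The TEAD word (CATTCCA) contains CATTC, by which the CATTC-rich class was chosen. Its share of 75.7% (69.9 to 80.7) in the 239 hotspots of that class therefore is no separate result. It was in 2.27% (1.27 to 4.02) of hotspots of single-copy clusters, against 3.82% (3.48 to 4.19) of unclustered single-copy hotspots, with intervals that overlapped. Over whole hotspots these shares were 16.7% (13.6 to 20.3) against 14.5% (13.8 to 15.1), or 0.248 against 0.259 sites per kb.

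Of the other 15 motifs, SOX (CCATTGT) was more frequent in hotspots of single-copy clusters, at 3.09% (1.88 to 5.04) against 1.30% (1.11 to 1.53) of unclustered single-copy hotspots. The share over whole hotspots was 10.1% (7.73 to 13.1) against 6.38% (5.94 to 6.84). Among the 454 single-copy hotspots it was 2.64% (1.52 to 4.56) in the central window, which overlaps the unclustered interval, and 9.47% (7.11 to 12.5) over whole hotspots, which does not. These hotspots were wider than the unclustered ones (median 647 against 550 bp). Per kb they held 0.130 SOX sites against 0.109, without an interval. Unclustered hotspots that were not single-copy had SOX in 6.35% of central windows. The glucocorticoid receptor motif (GNACANNNTGTNC), read under hydrocortisone, was in 1.03% (0.441 to 2.39) against 0.321% (0.232 to 0.444), which is 5 of 485 and 36 of 11214. Over whole hotspots it was in 3.30% (2.04 to 5.29) against 1.48% (1.27 to 1.72). These were 16 hotspots in 15 clusters, nearest to PKP1, DDIT4, BCL9L, JAM3, ZFP36L1, MPRIP, TUBD1, GADD45B, FAM83C, PTPN1, IRX4, QRSL1, DNAJB6, MYC and KLF4, and the hotspot near MYC, with 37.2% repeated words, alone held 8 matches. Among the 454 single-copy hotspots the shares were 0.881% (0.343 to 2.24) and, over whole hotspots, 3.30% (2.01 to 5.38). Per kb these 454 held 0.0423 matches, against 0.0243 in unclustered single-copy hotspots, without an interval. CTCF, the factor that bounds chromatin loops (CCNNNAGGNGGC), was less frequent, at 0.619% (0.211 to 1.80) against 2.15% (1.90 to 2.43), but with an upper bound of 1.92% among the 454 single-copy hotspots the intervals met. FOX (TGTTTAC) was at 0.619% against 2.00%, with intervals that overlapped. Over whole hotspots these shares were 7.63% (5.59 to 10.3) against 7.82% (7.34 to 8.33) for CTCF and 8.25% against 8.94% for FOX. The p53/p63 pattern (CATGNNNNNNCATG) was in 0 of 485 central windows, for which the interval reaches 0.786%, against 0.660% of unclustered single-copy hotspots.

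**Figure D5:**
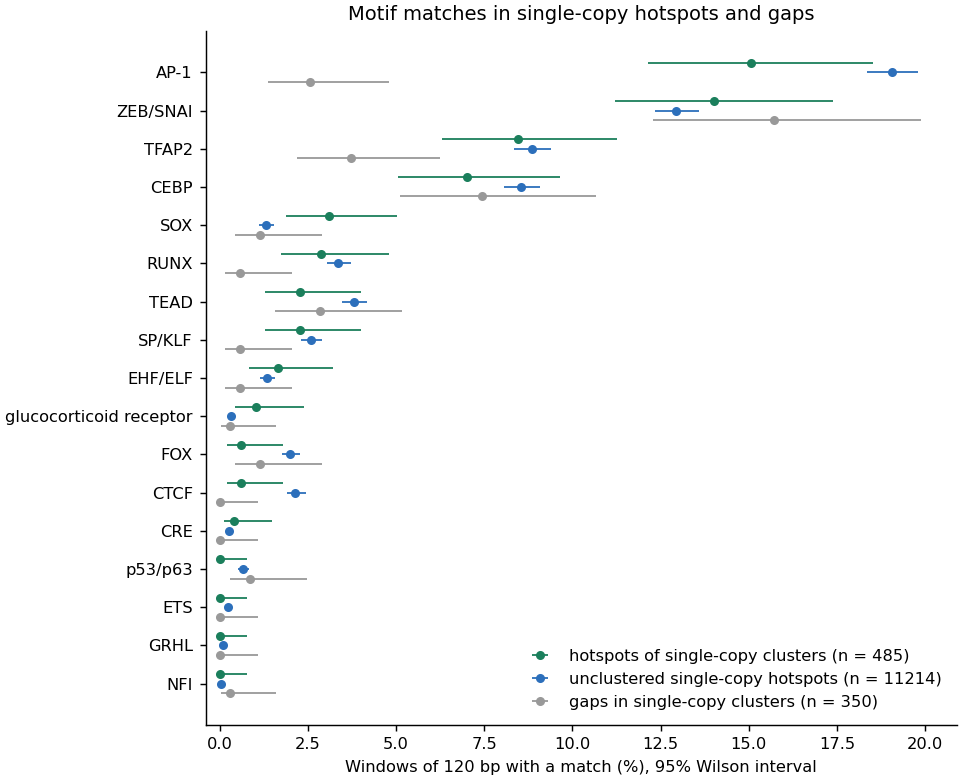
Points give the percentage of 120 bp windows with a match to each of 17 motifs (x axis), with 95% Wilson intervals as bars, in hotspots of single-copy clusters, unclustered single-copy hotspots and gap windows. AP-1 is at 15.1%, 19.1% and 2.57%, and SOX is the motif whose clustered interval lies above the unclustered one.

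For RUNX (TGTGGTT), EHF/ELF (CAGGAAGT), SP/KLF (CCCCGCCC), CEBP (TTGCNNAA), TFAP2 (GCCNNNGGC), CRE (TGACGTCA), ETS (CCGGAAGT), GRHL (AACCGGTT), NFI (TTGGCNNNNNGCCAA) and ZEB/SNAI (CAGGTG), the central shares in single-copy clusters had intervals that overlapped those of unclustered single-copy hotspots. Over whole hotspots, ZEB/SNAI was in 58.1% (53.7 to 62.5) against 46.6% (45.6 to 47.5), or 1.40 against 1.21 sites per kb. TFAP2 was in 36.5% (32.3 to 40.9) against 30.6% (29.8 to 31.5), or 0.756 against 0.707 per kb. SP/KLF was in 13.6% (10.8 to 16.9) against 10.0% (9.45 to 10.6), or 0.365 against 0.293 per kb. Its interval among the 454 single-copy hotspots (10.2 to 16.4) met the unclustered one. For the other motifs of this group the whole-hotspot intervals overlapped. Against gap windows, RUNX stood at 2.89% against 0.571%, TFAP2 at 8.45% against 3.71% and CEBP at 7.01% against 7.43%.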

How the data were processed

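The 5 ATAC-seq libraries of MCF10A were sequenced as paired reads, and the tag length given to Hotspot was 75 bases. The authors aligned them to hg38 with Bowtie2 (version not given for hg38 in the sources used here), merged the replicates, removed duplicates and called hotspots with Hotspot at a false discovery rate of 0.01, leaving out listed satellite regions. No shift of Tn5 cut sites is stated. The deposited values are a score per hotspot, used as given. What the score was divided by is not stated in the sources used here, the depth is unknown, and a pooled list allows no replicate error and no test between samples. No further column of per-sample values was left unused (0).

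TSSs were those of protein-coding transcripts of protein-coding genes in GENCODE release 44 (75398 positions of 18765 autosomal genes). Words of 75 bases were counted over hg38 on both strands. Clusters were grouped where they shared at least 100 words, directly or through a chain of other clusters. Gap windows had to touch no hotspot. Named genes are those nearest to the 25 clusters with the highest sums, to the 5 clusters with the most hotspots and the 5 longest, to the most clusters (up to 6), and list members nearest to a cluster. Other genes are said to have been chosen after their values were seen. The members, the 14 gene lists and the 17 motifs were chosen with earlier results of these data known. Alternatives were other join distances, score minimums, cluster sizes, TSS distances and TSS sets, merging of adjacent calls, leaving out chromosome 20 and chromosome 5 beyond 120 Mb, and, chosen after seeing the data, single-copy hotspots alone. A few named items and 1 sequence are not reported here. Joining, nearest gene and motif search were tested on simulated data. Software was Python 3.11.15 with numpy 2.4.6, pandas 2.3.3, scipy 1.17.1, numba 0.67.0 and matplotlib 3.10.9.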

Additional observations from a re-analysis of the deposited data

How the results depend on the processing

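No paired analysis was possible because the replicates were pooled into 1 list before hotspots were called, and for the same reason no replicate could be left out. Where a value below moved, the cause was not tested beyond the setting itself. With 0.5 times the join distance there were 236 clusters with 4.94% of strong distal hotspots, 208 nearest genes and an AP-1 share of 2.74% in clustered hotspots. With 2 times the distance these were 737, 15.98%, 652 and 7.22%. A score minimum of 8 gave 907 clusters, 12.6%, 763 nearest genes and 1 gene of the basal list. A minimum of 15 gave 85 clusters, 4.07%, 77 nearest genes, and AP-1 shares of 1.81% in clustered and 9.21% in unclustered hotspots. With at least 3 hotspots there were 1200 clusters, 18.5%, 1024 nearest genes, 1 gene of the basal list and an AP-1 share of 11.1% in unclustered hotspots. With at least 5 there were 150 clusters, 4.14%, 127 nearest genes and 12.7% of clusters on chromosome 20 or chromosome 5 beyond 120 Mb. TSSs of all annotated genes gave 255 clusters and 6.32%, and counting hotspots at most 300 bp apart as 1 gave 7.31%. Over whole hotspots, the AP-1 shares were 16.1% in clustered and 26.6% in unclustered hotspots.

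In settings chosen after seeing the data, joining only hotspots with under 10% repeated words gave 103 clusters, 4.14% of hotspots, 95 nearest genes, 13.6% of clusters on chromosome 20 or chromosome 5 beyond 120 Mb, and AP-1 shares of 14.4% in clustered and 18.9% in unclustered hotspots. Leaving out CATTC-rich hotspots as well gave 89, 3.42%, 86, 13.5%, 17.5% and 18.9%, and all 89 clusters overlapped a single-copy cluster of the rule. The AP-1 share of clustered hotspots was below that of unclustered ones in all 15 alternatives that gave both. These were drawn from the same hotspot list and are not independent. Except for the settings chosen after seeing the data, they took all sequence classes together. In the rule's repeated and CATTC-rich clusters, AP-1 was in 1.85% and 0.837% of central windows. Settings with a shorter or a longer TSS limit, with distance measured from the nearest edge of the hotspot, with the nearest gene taken from the edges of the cluster, and without chromosome 20 and chromosome 5 beyond 120 Mb moved no result by more than the limits used (1.5 times for counts, the interval for shares).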
